A study of Homo sapiens with 6 samples.

Results

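Kinesins are motor proteins that hydrolyse ATP to walk along, slide or shorten microtubules. The kinesin motor genes were taken as every protein-coding gene whose symbol is KIF with a number and an optional letter A to C, or KIFC1, KIFC2 or KIFC3, and 42 genes of the 19100 protein-coding identifiers in the count table met this definition. They were divided by their best-known work into 14 mitotic kinesins, 15 transport kinesins and 13 ciliary and other kinesins. CENPE, a mitotic kinesin whose symbol does not follow the pattern, is given below among the partners of the mitotic kinesins.

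RNA sequencing compared CAL62 cells, an established cell line of anaplastic thyroid carcinoma (ATC) with a wild-type genotype label, after 48 h in 50 nM erianin with cells kept for the same time in an equal concentration of its solvent, DMSO. Erianin is a bibenzyl compound from Dendrobium orchids. Each group had 3 libraries, with 25776301 to 34107727 reads counted on named genes. The labels do not say whether replicates were separate cultures, so p-values measure the spread between these libraries, which may be technical, and all results concern a single cell line. The markers of the line were checked first. KRT8, KRT18 and VIM had mean levels of 409, 587 and 505 TPM, PAX8 had 125.0 TPM, and among other thyroid genes TSHR and NKX2-1 were listed at 0, TG and SLC5A5 were under 0.1 TPM and FOXE1 was at 2.89 TPM. The blood and endothelial genes PTPRC, CD68, PECAM1 and VWF were each at or under 0.159 TPM. With erianin PAX8 fell, at a log2 fold change of -0.66 (edgeR, adjusted p = 0.00403), and VIM was lower at -0.47 (edgeR, adjusted p = 0.03). KRT8, KRT18 and FOXE1 did not pass the test (edgeR, adjusted p = 0.967, 0.232 and 0.963). VWF, the tested blood or endothelial gene, had 0.0821 to 0.185 CPM in DMSO and 0.293 to 0.487 CPM with erianin. VWF did not pass the test (edgeR, adjusted p = 0.0621). The part of these markers in the kinesin results was not tested.

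During division, mitotic kinesins push spindle poles apart, carry and hold chromosomes, trim microtubule ends and build the midzone on which cytokinesis depends, and many of their genes are transcribed mainly in G2 and M phase. Transport kinesins carry vesicles, mitochondria, lysosomes and RNA along microtubules throughout the cell cycle, often through light chains and adaptor proteins. Drugs that alter microtubules change the track on which both kinds of motor work. The comparison asks which motor genes differed in RNA between erianin and DMSO, and whether mitotic and transport kinesins differed in the same way. In bulk RNA, fewer cells in a given phase and less RNA per cell cannot be told apart.

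Most kinesin genes were expressed in CAL62 cells, over a wide range of levels. Levels between genes were compared in the deposited TPM, which scale for length. The lengths used are not given, and the order of the genes depends on them. In the DMSO libraries KIF1C, which carries vesicles between Golgi, ER and cell periphery, stood highest at 292 ± 31.5 TPM (SD, n = 3). KIFC1, a minus-end motor that bundles spindle microtubules, followed at 154 ± 7.53 TPM, and KIF3B, a subunit of the kinesin-2 heterotrimer, at 95.9 ± 4.41 TPM. KIF5B, the ubiquitous kinesin-1 heavy chain, was at 74.8 ± 19.2 TPM and KIF7, a ciliary regulator of Hedgehog signalling, at 69.6 ± 13.6 TPM. These last levels overlapped between libraries, so the order of KIF5B and KIF7 was not resolved. Among mitotic kinesins KIF2C (48.2 ± 2.61 TPM), KIF4A (41.7 ± 7.03 TPM) and KIF22 (41.6 ± 1.47 TPM) came after KIFC1. In TPM, KIF4A and KIF22 did not differ beyond their spread. Without scaling for length they stood apart, at means of 35.8 and 107 CPM in DMSO, although their annotated exonic bases number 4533 and 4312. At the low end of the genes tested were KIF26B at 0.304 ± 0.047 TPM and KIF5A at 0.10 ± 0.0655 TPM.

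**Figure D1:**
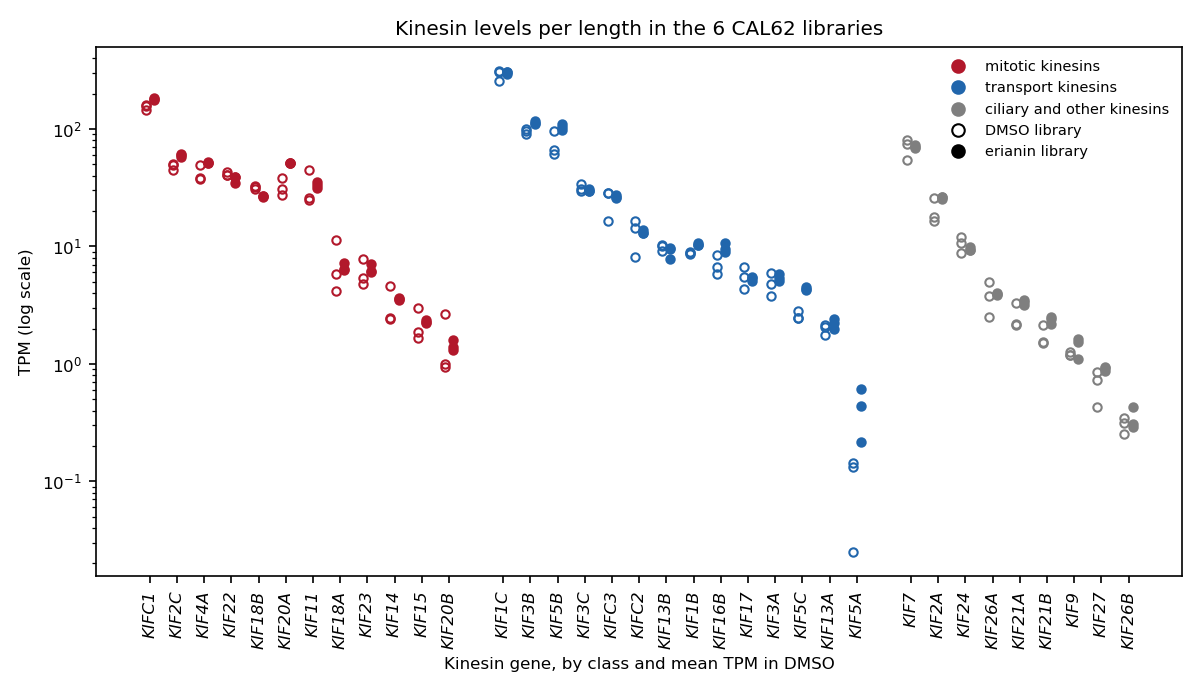
Level of each of the 35 tested kinesins in TPM (log scale) in every library, with DMSO libraries as open and erianin libraries as filled circles, ordered by class and by the mean TPM in DMSO. KIF1C, KIFC1 and KIF3B stand highest and KIF5A lowest, an order that depends on the lengths used for TPM. The levels serve to compare genes, since the sums of the TPM columns differ between libraries (59.1% of the nominal total in DMSO replicate 3 and 72.6% to 78.3% in the others).

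The other 7 members had too few reads to be tested. KIF2B had no read in any library, which allows up to 0.0857 to 0.123 CPM at 3 counts per library (counting error only). KIF1A, a neuronal carrier of synaptic vesicle precursors, had 0, 1 and 0 reads in the DMSO libraries, given here and throughout in the order of replicates 1, 2 and 3, and 3, 14 and 4 reads in the erianin libraries. KIF12 had 0, 0 and 3 reads in DMSO and 8, 2 and 8 with erianin. KIF4B, KIF6, KIF19 and KIF25 had between 0 and 6 reads in each library. No fold change is given for these 7 genes.

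Of the 35 kinesins tested, 1 rose and none fell with erianin at thresholds that ask for a log2 fold change beyond 0.5 in either direction and a p under 0.05 after Benjamini-Hochberg adjustment (edgeR's quasi-likelihood test on 12821 genes). The gene that rose was the transport kinesin KIF5C. The share of kinesins called was 2.86% higher and 0% lower, against 5.37% of all genes tested called higher and 3.36% called lower. At the adjusted p alone, 1 kinesin was higher (7.22% of all genes) and 3 were lower, KIF18B, KIF22 and KIF3C, or 8.57% of the kinesins against 7.69% of all genes. By DESeq2, 2 kinesins were called higher and 0 lower, beside 852 of the 12821 genes called higher and 531 called lower. In edgeR 7 of the 35 had an unadjusted p under 0.05, beside 3967 of the 12821 genes. KIF5C lay just inside the fold-change threshold, at a log2 fold change of 0.55, and KIF18B just outside it, at -0.47. The shares of kinesins called were thus close to or below those of all genes.

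The median log2 fold change was -0.046 over the 35 kinesins, with 15 above and 20 below 0, beside 0.0014 over all genes tested. It was -0.12 for the 12 mitotic kinesins tested, with 4 above and 8 below 0, and -0.052 for the 14 transport kinesins, with 6 above and 8 below 0. For the 9 ciliary and other kinesins tested it was 0.025, with 5 above and 4 below 0. In 5 kinesins, KIF20A, KIFC1, KIF2C, KIF5C and KIF5A, every erianin library was above every DMSO library, and in 5 others, KIF18B, KIF22, KIF1C, KIF3C and KIF13B, every erianin library was below. Each count makes 14.3% of the kinesins tested, against 19.5% of all genes with no overlap upwards and 19.3% downwards.

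**Figure D2:**
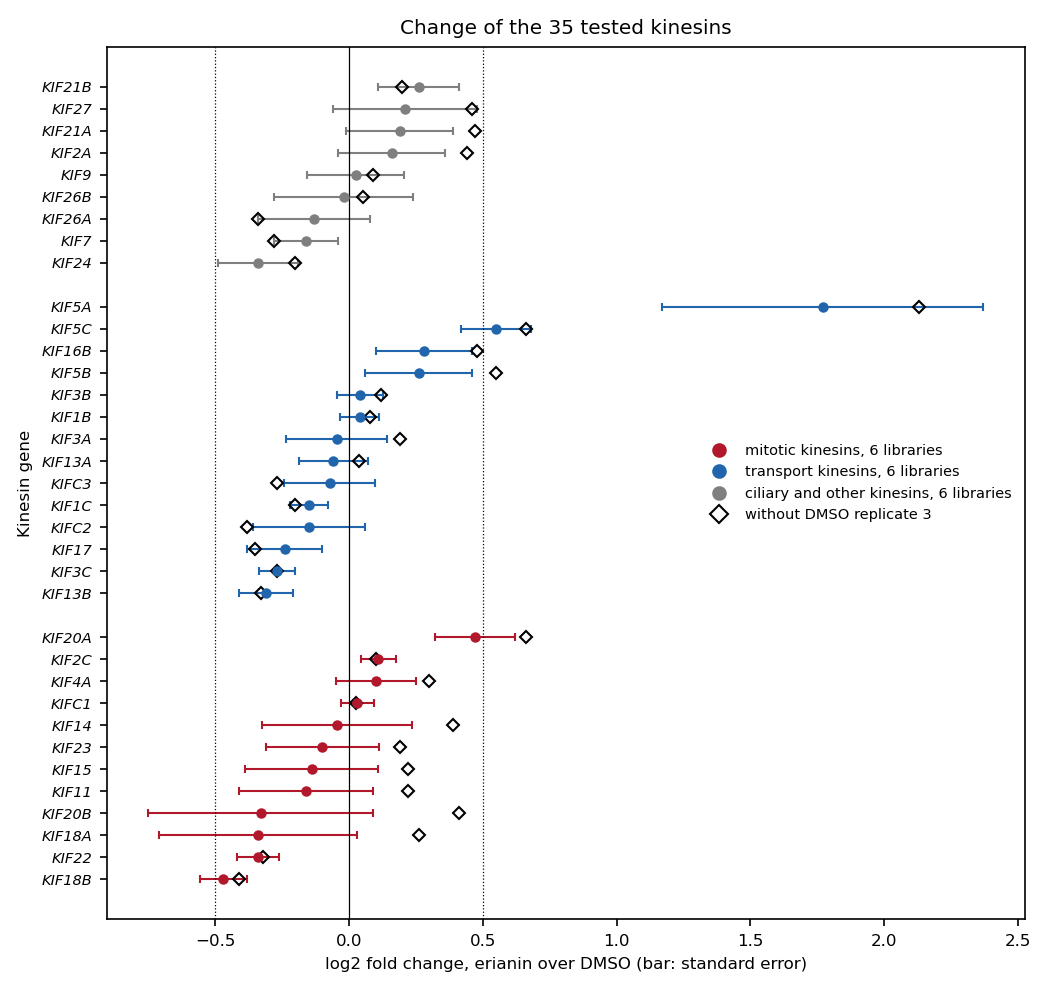
Log2 fold change, erianin over DMSO, of the 35 tested kinesins by class, as filled circles with standard errors for all 6 libraries and as open diamonds without DMSO replicate 3; dotted lines mark -0.5 and 0.5. KIF5C and KIF5A lie beyond 0.5 with 6 libraries, of which KIF5C alone passed the adjusted p, and 10 of the 12 mitotic diamonds lie to the right of 0, of which 6 have a circle to the left.

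The mean level of the mitotic kinesins had a wide spread within the DMSO group. DMSO replicate 3 stood apart from DMSO replicates 1 and 2. Its distance from them in log2 CPM over all genes tested was 64.1 and 62.9, against 37.2 between those libraries. The erianin libraries lay at 58.5 to 62.3 from DMSO replicates 1 and 2, nearer to them than DMSO replicate 3. The biological coefficient of variation was 0.139 with DMSO replicate 3 and 0.0421 without it. The mean log2 CPM of the 12 mitotic kinesins was 4.56, 4.52 and 5.19 in the DMSO libraries and 4.71, 4.69 and 4.73 in the erianin libraries. The mitotic mean was therefore high in DMSO replicate 3 and the erianin libraries lay between the DMSO libraries. By log2 CPM, DMSO replicate 3 was at 1.69 to 2.95 times replicates 1 and 2 for the 6 mitotic kinesins with a transcript GC content under 45%. For the 6 others it was at 0.995 to 1.45 times. For the 14 transport kinesins the mean log2 CPM was 4.89, 4.99 and 5.07 in DMSO and 5.13, 5.12 and 5.06 with erianin. The mitotic mean minus the transport mean was -0.34, -0.47 and 0.12 in DMSO and -0.41, -0.44 and -0.33 with erianin, so that this difference overlapped between the groups.

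Base composition moved with the position of DMSO replicate 3. Across the 35 kinesins, the log2 difference of DMSO replicate 3 from the mean of the other DMSO libraries had a Pearson correlation of -0.92 and a Spearman correlation of -0.91 with the GC content of the longest transcript, while over 12686 genes these were -0.51 and -0.55. These are descriptions across genes that share libraries. All 12 kinesins with a GC content under 45% were higher in DMSO replicate 3, by a median of 1.67-fold, while the 23 others had a median of 1.06-fold. Mitotic kinesins had a median transcript GC content of 44.3%, transport kinesins 49.5% and all genes 48.7%. KIF20B was 2.98-fold, KIF18A 2.48-fold and KIF11 1.91-fold higher in DMSO replicate 3 than in the mean of replicates 1 and 2. At the other end, KIFC2 was at 0.578 and KIFC3 at 0.632 of that mean.

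Without DMSO replicate 3, 4 kinesins were called higher by edgeR, KIF20A, KIF5A, KIF5B and KIF5C, and none lower. That is 11.4% of the 35, as for all 13053 genes then tested (11.4% higher and 6.11% lower). At the adjusted p alone 12 kinesins were higher and 10 lower, 34.3% and 28.6% of those tested, beside 27.5% and 27.7% of all genes. The mitotic median became 0.22, with 10 of 12 above 0, the transport median 0.057 and the median of the 12821 genes 0.014. When each library's trend on GC content was also removed, the mitotic median was 0.085 and the transport median -0.020. With the trend removed and all 6 libraries kept, they were -0.17 and -0.013. On the deposited TPM, with all 6 libraries, the mitotic median was 0.11, beside 0.18 for all genes (limma on log2(TPM + 1)). The sign of the mitotic median thus turned with 1 control library, and its size without that library also moved with the GC trend. On TPM the mitotic median was positive but below the median of all genes, as it was below that median on counts with 6 libraries.

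**Figure D3:**
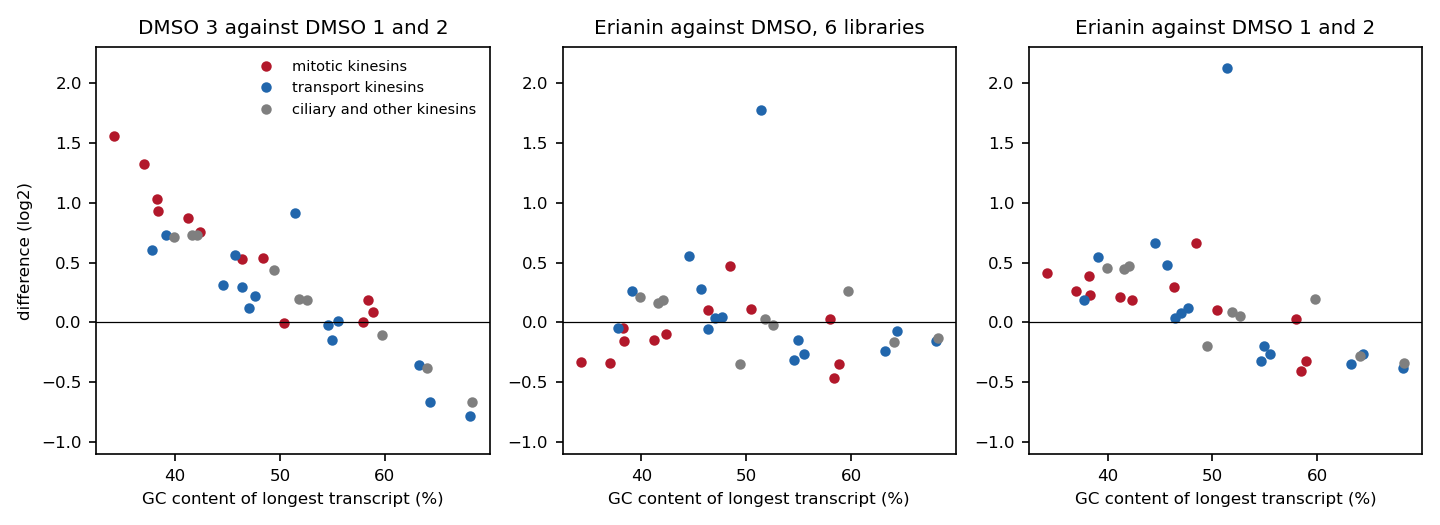
Log2 differences of the 35 tested kinesins against the GC content (%) of the longest transcript: DMSO replicate 3 over DMSO replicates 1 and 2, then the log2 fold change of erianin over DMSO with 6 libraries, then the same without DMSO replicate 3. The first panel falls steeply with GC content (Pearson -0.92, Spearman -0.91). The middle panel falls little (Pearson -0.12, Spearman -0.22) and the last falls again (Pearson -0.51, Spearman -0.74). KIF5A is the point far above the rest in the middle and last panels.

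Among the mitotic kinesins, KIF20A (ENSG00000112984) had the highest fold change. KIF20A, also called MKLP2, brings the chromosomal passenger complex to the midzone in anaphase. Its normalized counts were 43.5, 48.5 and 66.7 CPM in the DMSO libraries and 73.7, 73.7 and 72.1 CPM in the erianin libraries. Every erianin library was above every DMSO library, and DMSO replicate 3 lay closest to them. The log2 fold change was 0.47 ± 0.15 (SE), which did not pass the test (edgeR, adjusted p = 0.0816). Without DMSO replicate 3 it was 0.66 and passed (edgeR, adjusted p = 2.24e-11), as it did at 0.68 with the GC trend also removed (edgeR, adjusted p = 1.3e-12). Over the 18 alternative settings the adjusted p of KIF20A ran from 1.3e-12 to 0.223.

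KIF18B and KIF22 were the mitotic kinesins that were lower at the adjusted p, below the fold-change threshold. KIF18B (ENSG00000186185) works with KIF2C at the plus ends of astral microtubules and helps to centre the spindle. Its counts were 54.1, 51.7 and 60.2 CPM in DMSO and 39.4, 40.8 and 39.9 CPM with erianin, with a gap between the groups. The log2 fold change was -0.47 ± 0.088 (edgeR, adjusted p = 0.0147), or 0.723-fold. It remained negative under all 18 alternatives, between -0.52 and -0.26, and with the fold-change threshold kept was called lower only without DMSO replicate 2. KIF22 (ENSG00000079616), the chromokinesin Kid, binds DNA and pushes chromosome arms toward the spindle equator. Its counts were 102, 107 and 111 CPM in DMSO and 86.6, 78.8 and 86.6 CPM with erianin, again without overlap. The log2 fold change was -0.34 ± 0.077 (edgeR, adjusted p = 0.025). Exons of an antisense gene on the opposite strand cover 13% of the exonic bases of KIF22, and whether counting used strand is not stated. With the GC trend removed and 6 libraries kept, both genes missed the threshold, at adjusted p = 0.0534 for KIF18B and adjusted p = 0.0945 for KIF22 (edgeR). KIF18B also missed it when any erianin library was left out (edgeR, adjusted p from 0.0774 to 0.0885), and KIF22 when DMSO replicate 1 or 2 or any erianin library was left out (edgeR, adjusted p from 0.053 to 0.122).

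The 3 mitotic kinesins with the highest mean TPM did not pass the test. KIFC1 had 124, 123 and 124 CPM in DMSO and 126, 125 and 128 CPM with erianin, a log2 fold change of 0.031 ± 0.062 (edgeR, adjusted p = 0.787). A processed pseudogene on the opposite strand covers 12.7% of its exonic bases. KIF2C, the microtubule depolymerase MCAK, had 86.1, 86.8 and 86.0 CPM in DMSO and 94.1, 92.1 and 93.8 CPM with erianin, at 0.11 ± 0.065 (edgeR, adjusted p = 0.289). The groups of both genes did not overlap, but the fold changes were within 2 standard errors of 0. KIF4A, a chromokinesin that shapes the midzone with PRC1, had 30.9, 31.5 and 45.1 CPM in DMSO and 38.3, 39.0 and 38.3 CPM with erianin, at 0.10 ± 0.15 (edgeR, adjusted p = 0.696). KIF4B is nearly identical to KIF4A, so reads may be split between the pair, and KIF4B had at most 6 reads in a library.

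The other 6 mitotic kinesins, KIF11, KIF14, KIF15, KIF18A, KIF20B and KIF23, had transcripts with a GC content under 45% and showed a common order of libraries, with DMSO replicate 3 the highest. KIF11, the Eg5 motor that separates spindle poles, had 21.0, 20.1 and 39.2 CPM in DMSO and 24.0, 23.1 and 25.0 CPM with erianin, and the erianin values fell inside the DMSO range. The log2 fold changes of the 6 lay between -0.34 and -0.046, and none passed the test. Without DMSO replicate 3 they lay between 0.19 and 0.41. KIF11, KIF14 and KIF23 were then higher at the adjusted p alone (edgeR, adjusted p = 0.0161, 0.0118 and 0.0408), while KIF15, KIF18A and KIF20B were not. With the GC trend also removed the 6 lay between -0.01 and 0.15, and none passed the adjusted p. No direction could therefore be assigned to this group, which holds KIF18A, a length regulator of kinetochore microtubules, and KIF23, the kinesin of the centralspindlin complex.

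**Figure D4:**
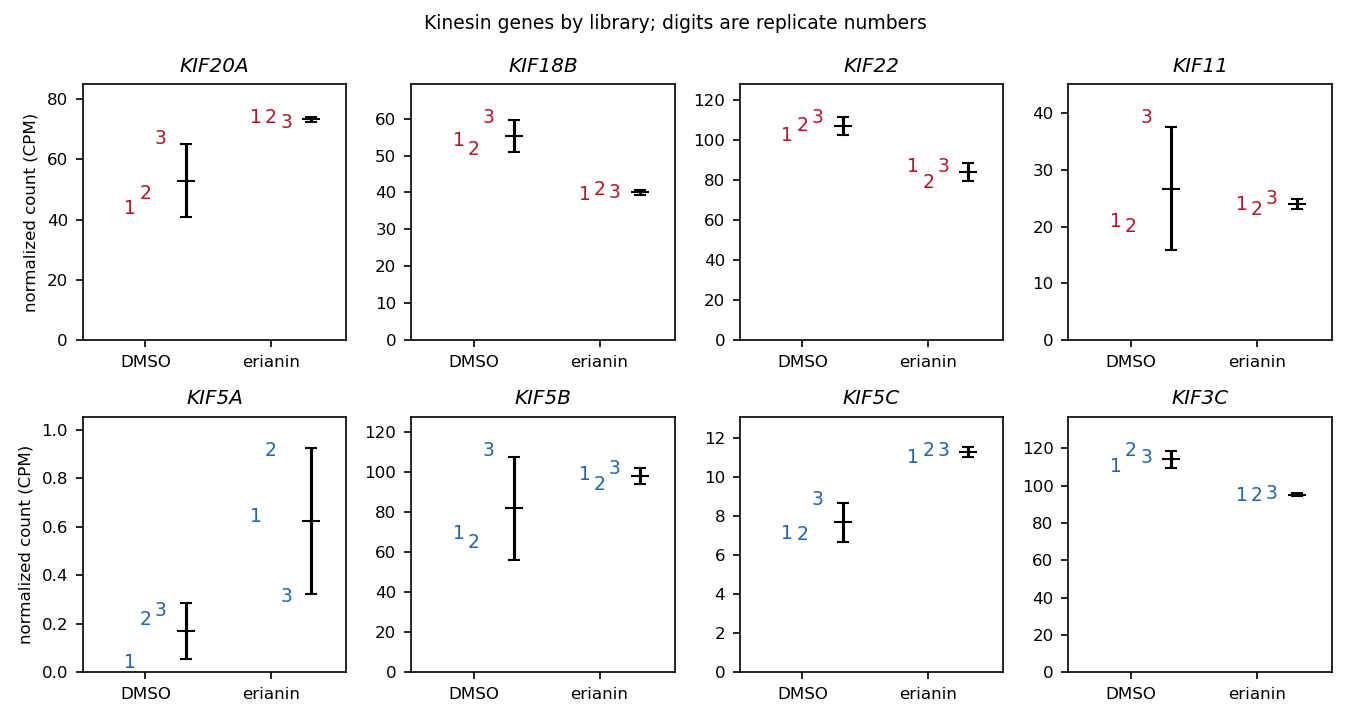
Normalized counts (CPM) of 8 kinesins in each library, with digits for replicate numbers and bars for the mean ± SD of 3 libraries; mitotic kinesins are above and transport kinesins below. The groups overlap in KIF11 and KIF5B, where DMSO replicate 3 is the highest DMSO library at 39.2 and 111 CPM, and are separate in the 6 others.

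Promoters were compared between the classes, because genes transcribed in G2 and M phase often carry a cell cycle genes homology region (CHR) near the start together with CCAAT boxes, which bind NF-Y. The letters searched, on both strands, were TTTGAA or TTCGAA for the CHR and CCAAT for the CCAAT box, in windows of 250 bases before to 50 after a RefSeq start (GRCh38.p14), and matches of the 2 kinds may share a base. The 4 windows below belong to the mitotic kinesins that were lower (KIF18B and KIF22), the mitotic kinesin with the highest fold change (KIF20A) and the transport kinesin that rose (KIF5C). Capitals mark matches to either kind of motif, in either orientation, so that ATTGG is a CCAAT box on the other strand. The windows are at chr17:44947724-44948023 on the minus strand for KIF18B, chr16:29790501-29790800 on the plus strand for KIF22, chr5:138178862-138179161 on the plus strand for KIF20A and chr2:148874977-148875276 on the plus strand for KIF5C.
KIF18B promoter: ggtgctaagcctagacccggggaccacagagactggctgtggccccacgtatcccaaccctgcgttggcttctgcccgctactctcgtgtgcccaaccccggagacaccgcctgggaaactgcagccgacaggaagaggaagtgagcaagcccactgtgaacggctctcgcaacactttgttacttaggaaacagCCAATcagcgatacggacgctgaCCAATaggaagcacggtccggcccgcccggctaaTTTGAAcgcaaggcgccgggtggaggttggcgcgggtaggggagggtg
KIF22 promoter: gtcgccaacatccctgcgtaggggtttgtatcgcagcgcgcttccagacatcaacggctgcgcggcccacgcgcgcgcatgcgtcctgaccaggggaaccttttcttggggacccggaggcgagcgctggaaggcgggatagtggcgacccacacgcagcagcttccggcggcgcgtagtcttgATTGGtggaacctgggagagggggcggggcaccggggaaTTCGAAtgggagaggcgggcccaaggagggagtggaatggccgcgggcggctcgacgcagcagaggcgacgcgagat
KIF20A promoter: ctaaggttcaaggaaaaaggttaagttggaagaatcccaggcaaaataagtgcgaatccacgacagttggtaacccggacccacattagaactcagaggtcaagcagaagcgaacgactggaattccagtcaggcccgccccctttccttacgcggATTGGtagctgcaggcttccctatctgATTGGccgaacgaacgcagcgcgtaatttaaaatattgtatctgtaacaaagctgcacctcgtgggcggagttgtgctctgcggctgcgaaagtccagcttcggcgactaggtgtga
KIF5C promoter: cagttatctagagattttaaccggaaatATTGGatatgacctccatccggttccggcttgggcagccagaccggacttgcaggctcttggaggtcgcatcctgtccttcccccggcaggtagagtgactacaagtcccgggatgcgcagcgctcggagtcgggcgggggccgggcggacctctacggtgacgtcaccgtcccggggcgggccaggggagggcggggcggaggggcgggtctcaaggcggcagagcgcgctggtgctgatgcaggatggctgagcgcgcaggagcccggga

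KIF18B had CCAAT boxes that begin 55 and 32 bases before the start and a CHR just after it. KIF22 had a CCAAT box 66 bases and a CHR 27 bases before the start. KIF20A had CCAAT boxes 94 and 67 bases before the start and no match to the CHR letters, and KIF5C had a single CCAAT box 222 bases before it. Windows were matched for 34 of the 42 kinesins, the others being KIF5A, KIF13B, KIF19, KIF21B, KIF26B, KIF27, KIFC2 and KIFC3. A CHR was found in 11 of 14 mitotic kinesins (78.6%), in 1 of 11 transport kinesins (KIF5B) and in 1 of 9 ciliary and other kinesins (KIF24), beside 13.5% of 15042 protein-coding genes. Both motifs were found in 71.4% of the mitotic kinesins, 9.09% of the transport kinesins and 5.72% of the protein-coding genes. KIF2B, KIF2C and KIF20A were the mitotic kinesins without a CHR match. Mitotic kinesins with positive and with negative fold changes thus shared these letters, and a match is a description of the window and not evidence of binding.

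Among the transport kinesins, the kinesin-1 heavy chains KIF5A and KIF5C had the highest fold changes. KIF5A, KIF5B and KIF5C are alternative heavy chains of the same motor, of which KIF5B is found in most tissues and KIF5A and KIF5C mainly in neurons. KIF5C (ENSG00000168280; chr2:148875250-149026759, plus strand) had 7.14, 7.09 and 8.86 CPM in DMSO and 11, 11.4 and 11.4 CPM with erianin. All erianin libraries were above all DMSO libraries. The log2 fold change was 0.55 ± 0.13 (edgeR, adjusted p = 0.0282), or 1.46-fold. It stayed between 0.49 and 0.74 over 18 alternatives, but the call was lost when DMSO replicate 1 or 2 or any erianin library was left out (edgeR, adjusted p from 0.0914 to 0.122) and held without DMSO replicate 3 (edgeR, adjusted p = 8.12e-06).

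KIF5B had 69.4, 64.8 and 111 CPM in DMSO and 98.9, 94.0 and 102 CPM with erianin. DMSO replicate 3 was the highest of the 6 libraries, and the groups overlapped. The log2 fold change was 0.26 ± 0.20 (edgeR, adjusted p = 0.409). Without DMSO replicate 3 it was 0.55 (edgeR, adjusted p = 1.62e-10), and with the GC trend also removed it was 0.33, below the fold-change threshold. KIF5A was at the limit of detection, with 1, 7 and 8 reads in DMSO and 22, 32 and 11 reads with erianin. These are 0.0411, 0.216 and 0.257 CPM and 0.644, 0.916 and 0.314 CPM. The log2 fold change was 1.77 ± 0.60 (edgeR, adjusted p = 0.0884), and DESeq2 called the gene at 1.82 (adjusted p = 0.0435). All 3 heavy chains had positive values, with a median of 0.55, while only KIF5C passed the main test.

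None of the remaining transport kinesins was called. KIF1C had 512, 515 and 462 CPM in DMSO and 457, 441 and 446 CPM with erianin, at a log2 fold change of -0.15 ± 0.071 (edgeR, adjusted p = 0.207). The groups did not overlap, although DMSO replicate 3 came within a few CPM of the highest erianin library. KIF3C, a kinesin-2 subunit best known from neurons, had 110, 119 and 115 CPM in DMSO and 94.7, 94.9 and 95.9 CPM with erianin. KIF3C was lower at -0.27 ± 0.068 (edgeR, adjusted p = 0.039), or 0.832-fold, and with the GC trend removed it was at -0.21 (edgeR, adjusted p = 0.108). KIF3C missed the adjusted p when DMSO replicate 1 or 2 or any erianin library was left out (edgeR, adjusted p from 0.0715 to 0.158). KIF3B, the partner of KIF3A in the kinesin-2 motor that builds cilia, had 97.5, 91.6 and 110 CPM in DMSO and 101, 103 and 104 CPM with erianin, at 0.042 ± 0.086 (edgeR, adjusted p = 0.788). Of the kinesin-2 family, KIF3B, KIF3A, KIF17 and KIF3C, 1 of 4 members was above 0, with a median of -0.14.

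The kinesin-3 carriers KIF1B, KIF1C, KIF13A, KIF13B and KIF16B ranged from -0.31 for KIF13B to 0.28 for KIF16B, and none passed the test. KIF13B had 31.8, 32.1 and 31.4 CPM in DMSO and 27.0, 22.6 and 27.0 CPM with erianin, without overlap (edgeR, adjusted p = 0.0791). The minus-end motors KIFC2 and KIFC3 were at -0.15 and -0.071 and did not pass the test. KIFC3 had 215, 216 and 136 CPM in DMSO and 180, 177 and 182 CPM with erianin, so its erianin values lay inside the DMSO range.

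Of the 9 ciliary and other kinesins tested, none passed the test and in none were the groups separate. KIF7 had 79.8, 85.0 and 63.1 CPM in DMSO and 70.1, 67.0 and 66.7 CPM with erianin, at -0.16 ± 0.12 (edgeR, adjusted p = 0.395). KIF2A, a microtubule depolymerase related to KIF2C that works in spindles, cilia and neurons, had 41.3, 38.5 and 66.3 CPM in DMSO and 55.0, 53.6 and 54.3 CPM with erianin, at 0.16 ± 0.20 (edgeR, adjusted p = 0.638). KIF24, a depolymerase that restrains ciliogenesis, had 17.2, 20.8 and 25.6 CPM in DMSO and 17.5, 16.6 and 16.2 CPM with erianin, at -0.34 ± 0.15 (edgeR, adjusted p = 0.168). In KIF7 and KIF2A the erianin libraries lay between DMSO replicate 3 and the other DMSO libraries. KIF9, KIF21A, KIF21B, KIF26A, KIF26B and KIF27 lay between -0.13 and 0.26. Exons of other genes cover 17.9% of KIF9, 11.8% of KIF7 and 8.97% of KIF2A.

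Genes of proteins that work with kinesins were taken from lists of mitotic kinesin partners and of cargo adaptors and light chains. Of 16 mitotic partners, 0 were called by edgeR, beside 5.37% of all genes called higher and 3.36% called lower. An unadjusted p under 0.05 was seen in 3 of the 16, beside 3967 of the 12821 genes. The median log2 fold change of the partners was 0.064. AURKB, the kinase of the chromosomal passenger complex that KIF20A carries, was at -0.19 (edgeR, adjusted p = 0.0943), and TPX2, which targets AURKA and KIF15 to the spindle, at 0.10 (edgeR, adjusted p = 0.783). TPX2 had 255, 242 and 421 CPM in DMSO and 337, 331 and 316 CPM with erianin. Without DMSO replicate 3 TPX2 was at 0.40 (edgeR, adjusted p = 1.73e-09), below the fold-change threshold. TPX2, PLK1 and CDCA8 had the highest mean TPM of the partners, and PLK1 and CDCA8 were at -0.19 and -0.044. RACGAP1, which forms centralspindlin with KIF23, had 93.4, 93.9 and 93.4 CPM in DMSO and 107, 110 and 110 CPM with erianin and did not pass the test (edgeR, adjusted p = 0.0569). Without DMSO replicate 3, 3 of the 16, CENPE, HMMR and CEP55, were called higher, beside 11.4% of all genes. At the adjusted p alone 8 of the 16 were then higher and 2 lower, beside 27.5% and 27.7% of all genes. With the GC trend also removed CENPE and CEP55 were at 0.30 and 0.44, below the fold-change threshold. HMMR stayed called there, at 0.83 (edgeR, adjusted p = 6.21e-06), while with 6 libraries it was at 0.43 (edgeR, adjusted p = 0.496). CENPE had 2.3, 1.94 and 4.88 CPM in DMSO and 3.60, 2.49 and 3.37 CPM with erianin, and its groups overlapped as did those of the low-GC mitotic kinesins.

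Of 20 cargo adaptors and light chains, 19 were tested and none was called lower, beside 3.36% of all genes. The median log2 fold change was -0.062. KIFBP was listed at 0 in every library. MAPK8IP1, the JIP1 scaffold that binds kinesin light chains, was lower at -0.37 ± 0.092 (edgeR, adjusted p = 0.0356), below the fold-change threshold, and with the GC trend removed it was at -0.32 (edgeR, adjusted p = 0.162). CLSTN1 and PLEKHM2, adaptors of high mean TPM, were at -0.14 and -0.13 and did not pass the test. The light chains KLC1, KLC2, KLC3 and KLC4 lay between -0.11 and 0.17 and did not pass the test, beside the increase of the heavy chain KIF5C.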

How the data were processed

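RNA from 6 CAL62 libraries was measured by RNA sequencing (BGISEQ-500 per the study's methods; the labels mention Illumina library protocols). Raw counts of reads on each gene and TPM values of the same libraries were deposited by the authors. The submitters' processing notes name fastp 0.23.2, STAR 2.7.10, featureCounts 2.0.1, StringTie 2.2.1 and GRCh38, without roles or order; strand setting and annotation are not given in the sources used here. The count table has 65807 rows, of which 26480 have no gene identifier (0.00385% to 0.00515% of counts) and were left out; 38259 of 39168 identifiers matched a symbol.

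Counts of all genes were fitted with edgeR 4.0.16 under R 4.3.3 (filterByExpr with the groups, TMM factors, glmQLFit, then glmQLFTest), with no term for the replicate number, and p-values were adjusted over all 12821 genes. CPM are normalized counts. Standard errors came from the F statistic. Gene positions, GC content of the longest transcript and exon overlaps came from GENCODE 29, and promoters from RefSeq, using the start nearest the GENCODE start. The steps were tested on simulated counts with equal dispersion in all libraries, where any GC trend lay on the erianin libraries. A control library that stands apart, as DMSO replicate 3 does, was not simulated.

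Alternatives were DESeq2 1.42.0, other scaling factors, other filters, limma 3.58.1 on log2 TPM, the replicate number as a block, removal of each library's GC trend (loess, span 0.5), other fold-change thresholds and each library left out in turn. Removal of the GC trend with DMSO replicate 3 left out was chosen after seeing the data. The members and all lists were chosen with earlier results of these data known. Per-library values are given for kinesins called with or without DMSO replicate 3 and for the most abundant of each class (4 mitotic, 4 transport, 3 other) by mean TPM; KIF18B, KIF22, KIF11, KIF13B and KIFC3 were added after their values were seen. From the other lists, genes were chosen by mean TPM and by call, or named for their link to a kinesin after their values were seen. Figures were drawn with matplotlib 3.10.9 in Python 3.11.15. Some genes of the lists are not reported here.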

Additional observations from a re-analysis of the deposited data

How the results depend on the processing

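The number of kinesins called higher, 1 with edgeR and 6 libraries, was 2 with DESeq2 (KIF5A and KIF5C), 2 in each of the 3 limma fits on TPM (KIF20A and KIF5C), 3 with the GC trend removed and DMSO replicate 3 left out, and 0 at an absolute log2 fold change over 1. Leaving out 1 library gave 0 to 4, with 4 without DMSO replicate 3 and 0 without each of the others. With the replicate number as a block it was 0 (KIF5C at adjusted p = 0.0711), and 2 with the block and the GC trend removed; same-numbered libraries did not deviate together (correlations 0.00138, 0.0253 and -0.0329), so the numbers were not taken as pairs. The number called lower, 0, was 3 without a fold-change threshold and 0 to 1 on leaving out 1 library (1 without DMSO replicate 2, KIF18B). The mitotic median ranged from -0.28 to 0.22 and the transport median from -0.088 to 0.057 when 1 library was left out, both highest without DMSO replicate 3. On log2 TPM the transport median was 0.15, 0.16 and 0.15 and the mitotic median 0.11, 0.13 and 0.11, where the median of all genes was 0.18, 0.20 and 0.12; there KIF1C was at 0.051, 0.052 and 0.051 and KIF7 at 0.047, 0.048 and 0.047, with signs opposite to the counts but below the median of all genes. KIF3B was at -0.020 without DMSO replicate 2. Of 267 values over 15 kinesins and 18 settings, 243 kept their direction and their status as called or not called. A call needs both the adjusted p and the fold change, and some of the 243 crossed the adjusted p threshold alone. KIF22 went from adjusted p = 0.025 (edgeR) to adjusted p = 0.222 (limma on log2(TPM + 1)). KIF2C went from adjusted p = 0.289 (edgeR) to adjusted p = 0.0299 (limma on log2(TPM + 1)). All genes called higher and lower numbered 688 and 431 in the main setting, 1485 and 797 without DMSO replicate 3, 1143 and 471 with the GC trend also removed, 384 and 281 with the block, 433 and 311 without DMSO replicate 1, 425 and 312 without DMSO replicate 2, 172 to 184 and 126 to 144 on leaving out an erianin library, 822 and 299 with upper-quartile factors, and 1057 to 1207 higher and 88 to 110 lower on TPM. With 3 libraries a group an exact test of 1 gene cannot go below p = 0.10, and KIF5A and the 7 untested kinesins were limited by depth.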

Other observations

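Dynein and dynactin, the minus-end motor and its activator that work against many kinesins, were taken as a further list. Of 21 genes tested, 0 were called by edgeR, beside 5.37% of all genes called higher and 3.36% called lower. An unadjusted p under 0.05 was seen in 3 of the 21, beside 3967 of the 12821 genes. The median log2 fold change was -0.0061, with 10 above and 11 below 0. Without DMSO replicate 3, edgeR again called 0 of the 21, beside 11.4% of all genes higher and 6.11% lower. At the adjusted p alone 6 were then higher and 7 lower, beside 27.5% and 27.7% of all genes. DYNC1H1, the dynein heavy chain, had 1440, 1480 and 1480 CPM in DMSO and 1280, 1290 and 1170 CPM with erianin, and at -0.24 ± 0.071 it did not pass the test (edgeR, adjusted p = 0.0654). The 3 genes of the list with the highest mean TPM, DYNLRB1, DYNLL1 and DYNLL2, were at -0.28, 0.011 and 0.066. BICD1, an adaptor of dynein, had 30.5, 30.5 and 36.7 CPM in DMSO and 38.4, 41.8 and 39.6 CPM with erianin, at 0.29 (edgeR, adjusted p = 0.102). PRC1, the midzone partner of KIF4A, was at a mean of 0.290 TPM, below KIF4A and the other partners on the list, and how its reads were assigned was not tested.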
